A study of Mus musculus with 8 samples.

Results

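Troponin is the calcium switch of the striated muscle thin filament, and 7 of its genes, selected by symbol among the 19465 genes of the deposited tables, are described here across 8 sections of fetal mouse diaphragm. The members are Tnnt1, Tnni1 and Tnnc1 (slow skeletal troponin T, troponin I and troponin C, the last also the cardiac form), Tnnt2 (cardiac troponin T, also made by immature skeletal muscle), and Tnnt3, Tnni2 and Tnnc2 (the fast skeletal troponin T, I and C). Spatial transcriptomes were taken from 3 control diaphragms at E14.5 (embryonic day) and 2 at E18.5, from 1 CaV1.1 -/- diaphragm at each stage, and from 1 bCat cKO diaphragm at E18.5. CaV1.1 -/- embryos carry no functional CaV1.1, the skeletal muscle calcium channel and voltage sensor that couples excitation to contraction. The bCat cKO embryo carried HSA-Cre, a recombinase driven by the human skeletal actin promoter, together with β-catenin flox/flox, so its deletion is meant for skeletal muscle and not for the other cells of a section. Control embryos kept at least one expressed allele of CaV1.1 and of β-catenin. Each section came from a different embryo, and each mutant group is a single section, so its differences rest on the spread between the controls.

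In a contracting fiber, calcium binds troponin C, troponin I releases its hold on actin, and troponin T passes the change to tropomyosin, which moves aside so that myosin can reach actin. Slow and fast fibers use different genes for each subunit, and fetal muscle passes through mixed states, with the cardiac form of troponin T present early and replaced later. The diaphragm is a mixed muscle with both slow and fast fibers, used for the first breath at birth.

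Of the 7 genes, 4 lie in 2 linked pairs in the mouse genome. In GRCm38 coordinates from GENCODE, Tnni1 (chr1:135779434-135810989, plus strand) and Tnnt2 (chr1:135836354-135852260, plus strand) lie 25364 bp apart, and Tnni2 (chr7:142441808-142444410, plus strand) and Tnnt3 (chr7:142498836-142516009, plus strand) are separated by 54425 bp. Tnnt1 (chr7:4504570-4516382, minus strand), Tnnc1 (chr14:31208312-31211729, plus strand) and Tnnc2 (chr2:164777161-164779967, minus strand) stand apart from the other members. The 250 bases before a RefSeq start site (build GRCm38.p6) were at hand for 5 of the 7 members, and are shown because the 3 slow genes varied together from spot to spot at E18.5 while Tnnc2 varied with the fast genes and Tnnt2 with neither set closely. Capitals mark the E-box (CANNTG, the same on both strands), the core of the sites of MyoD family factors, and the MCAT element (CATTCC on either strand), the core of TEAD sites; no match of one overlapped a match of the other. For Tnni1 and Tnnt2 the first of 2 listed start sites is shown.
Tnnt1 (chr7:4515976-4516225, minus strand): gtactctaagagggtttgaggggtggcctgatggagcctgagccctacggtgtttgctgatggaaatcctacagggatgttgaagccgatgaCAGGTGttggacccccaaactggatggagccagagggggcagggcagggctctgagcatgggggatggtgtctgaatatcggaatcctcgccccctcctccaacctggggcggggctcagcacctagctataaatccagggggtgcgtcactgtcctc
Tnni1 (chr1:135799171-135799420, plus strand): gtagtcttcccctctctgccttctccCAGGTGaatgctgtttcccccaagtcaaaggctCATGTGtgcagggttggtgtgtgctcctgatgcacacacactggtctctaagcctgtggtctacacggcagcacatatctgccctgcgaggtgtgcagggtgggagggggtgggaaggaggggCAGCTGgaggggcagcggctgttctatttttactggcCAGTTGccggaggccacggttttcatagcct
Tnnc1 (chr14:31208062-31208311, plus strand): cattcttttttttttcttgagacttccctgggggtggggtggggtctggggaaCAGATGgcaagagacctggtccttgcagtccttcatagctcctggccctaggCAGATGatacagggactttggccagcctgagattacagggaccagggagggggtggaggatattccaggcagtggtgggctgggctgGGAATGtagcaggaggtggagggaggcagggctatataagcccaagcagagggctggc
Tnnt2 (chr1:135836084-135836333, plus strand): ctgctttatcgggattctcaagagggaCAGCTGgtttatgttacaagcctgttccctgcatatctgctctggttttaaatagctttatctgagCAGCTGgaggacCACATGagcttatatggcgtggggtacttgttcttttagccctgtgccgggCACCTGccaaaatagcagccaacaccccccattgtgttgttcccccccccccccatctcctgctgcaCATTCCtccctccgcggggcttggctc
Tnnc2 (chr2:164779735-164779984, minus strand): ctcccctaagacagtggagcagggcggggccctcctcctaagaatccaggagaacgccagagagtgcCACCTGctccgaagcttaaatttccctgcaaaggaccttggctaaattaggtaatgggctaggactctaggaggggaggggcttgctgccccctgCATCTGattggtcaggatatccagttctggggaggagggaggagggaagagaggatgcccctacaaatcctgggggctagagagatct
Tnnt1 had 1 E-box in its window, Tnni1 4, Tnnc1 2, Tnnt2 4 and Tnnc2 2, in letters that 66.2% of all 32851 windows of the same length contained at least once. The MCAT letters stood 58 bases before the start of Tnnc1 and 27 bases before that of Tnnt2, against 12.6% of all windows with a match, and were absent from the windows of Tnnt1, Tnni1 and Tnnc2. The MEF2 and CArG motifs, found in 2.92% and 1.47% of windows, had no match in these windows. These matches describe letters and not bound sites.

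Each section held 703 to 3478 spots under tissue, with 14179161 to 82859104 unique molecular identifiers (UMIs, single captured molecules) in total. A spot is 55 µm wide and covers several fibers and other cells, so fewer fibers of a type and less RNA per fiber cannot be told apart in any value below. Muscle spots, set by 8 muscle genes that include no troponin, numbered 557, 575 and 587 in the E14.5 controls, 3092 and 2205 in the E18.5 controls, 497 and 812 in the CaV1.1 -/- sections of E14.5 and E18.5, and 1570 in the bCat cKO section. All 7 members were higher inside these spots than outside them in every section, from 1.71-fold (Tnnc1, CaV1.1 -/- at E18.5) to 7.64-fold (Tnnc2, bCat cKO). Of 6 cardiac muscle markers, Nppa lay between 0.0477 and 0.184 CPM (UMIs of a gene per 1000000 UMIs of all genes) in muscle spots. Tnni3, the cardiac troponin I gene, lay between 0.725 and 2.21, in each section lower in muscle than outside it. The 6 together summed to 1358 to 4542 CPM in muscle spots. Most of it in each section was Myl4, a gene also on the list of developmental genes used below. The part of these 6 in the levels of Tnnc1 and Tnnt2 was not tested. Summed levels of other cell types in muscle spots ranged over the sections from 335.3 to 531.8 CPM for 5 tendon genes, 387.0 to 691.7 for 3 fibroblast genes, 153.0 to 484.2 for 4 endothelial genes, 188.8 to 687.9 for 3 smooth muscle genes, 17.6 to 946.8 for 3 cartilage genes, 115.4 to 3646 for 3 hemoglobin genes and 0.523 to 702.9 for 3 hepatocyte genes, with no gene at 0. The targeted gene Cacna1s measured 29.8 scaled CPM in the CaV1.1 -/- section at E18.5 against 84.3 and 87.2 in its controls, and 13.45 against 14.96 to 18.33 at E14.5. Ctnnb1 measured 96.25 in the section labelled bCat cKO against 97.7 and 104.6 in controls; where its probes lie relative to the floxed exons is not given in the sources used here, so it does not check that label.

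The first comparison asked how the troponin genes changed in control muscle from E14.5 to E18.5, as fetal muscle grows and matures. With the scaling given next, the 3 fast genes rose by 3.34 to 4.93 on the log2 scale. The cardiac Tnnt2 fell by 0.996 and the slow genes moved much less on that scale. Values are CPM summed over the muscle spots of a section, scaled by the trimmed mean of M-values (TMM), which sets the bulk of genes equal between sections; because capture differs between probes, levels are compared between sections and never between genes. Tnnt3 measured 1767, 1378 and 1438 in the E14.5 controls and 20680 and 21850 in the E18.5 controls. Tnni2, the fast inhibitory subunit, measured 128.5, 97.0 and 110.9 at E14.5 and 3232 and 3600 at E18.5. Tnnc2, the fast calcium-binding subunit, measured 2961, 2253 and 2215 at E14.5 and 25910 and 24390 at E18.5. The stages were far apart for each of these genes, with no overlap between the E14.5 and E18.5 sections, a trait that was not counted over all genes.

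Tnnt2 measured 2116, 1623 and 1730 at E14.5 and 845.7 and 982.4 at E18.5. Tnnt1, the slow tropomyosin-binding subunit, measured 2989, 2151 and 2192 at E14.5 and 3555 and 3902 at E18.5. For both genes, and for Tnni1 below, the 2 stages did not overlap. How many of all genes are without overlap was not counted, and 65.7% of them were called in the fit that follows. Tnni1 measured 2655, 1939 and 1945 at E14.5 and 1624 and 1749 at E18.5, and Tnnc1 measured 1178, 925.1 and 952.5 at E14.5 and 796.0 and 925.9 at E18.5. For Tnnc1 the higher E18.5 section equalled the lowest E14.5 section to within 1 unit.

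**Figure D1:**
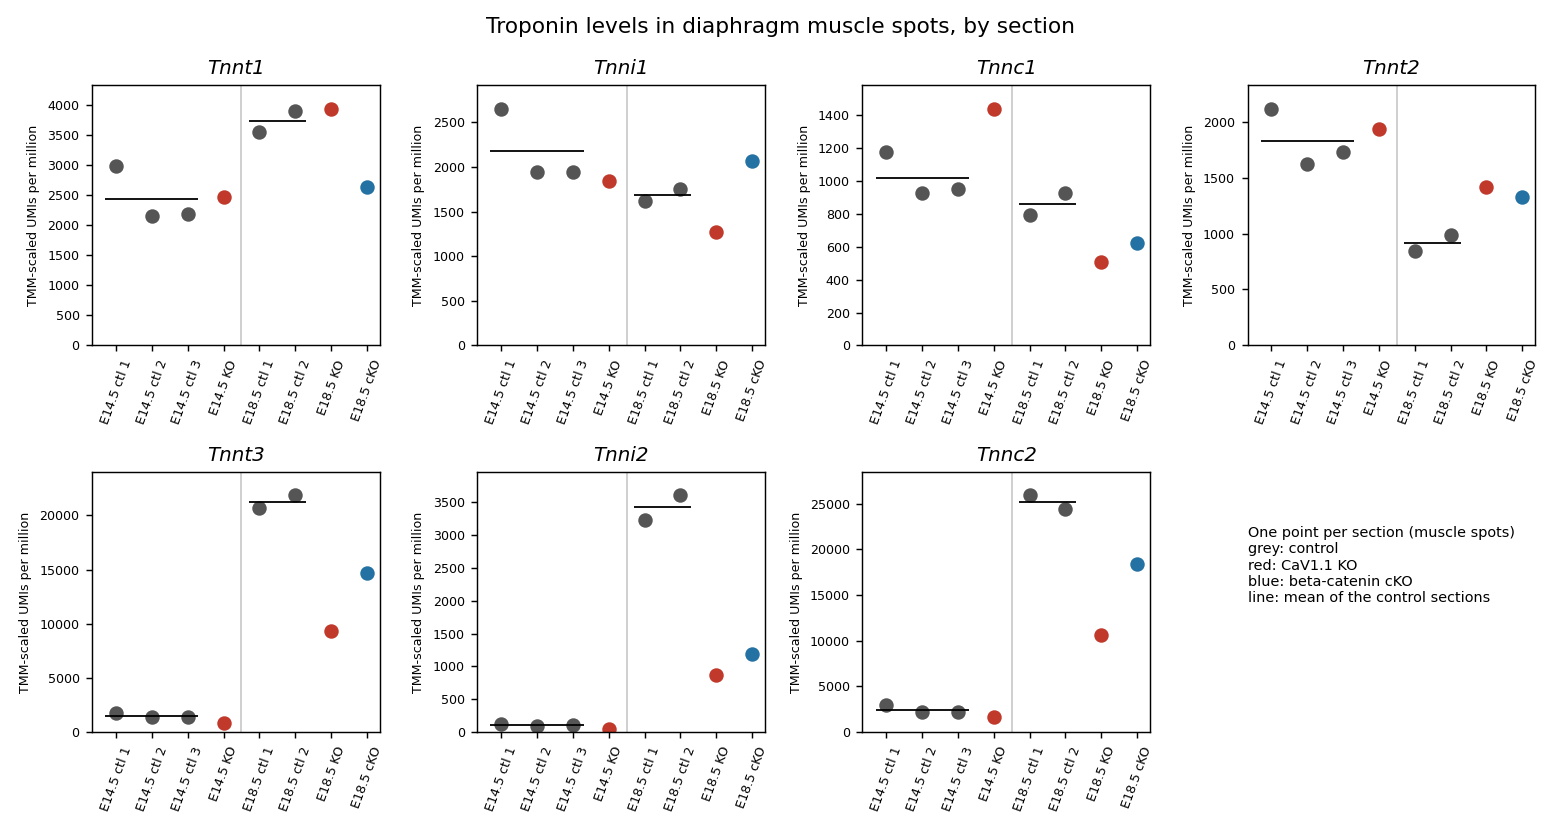
TMM-scaled CPM (linear vertical axes from 0) of each troponin gene in the muscle spots of each section, 1 point per section, with grey controls, red CaV1.1 -/- and blue bCat cKO sections and a line at the mean of the controls. The fast genes sit far higher in the E18.5 controls than at E14.5, and for Tnni2 the mutant sections at E18.5 (875.5 and 1182) lie well under the controls (3232 and 3600).

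In the edgeR quasi-likelihood fit over 14839 genes, with Benjamini-Hochberg adjusted p under 0.05 as the call, 65.7% of all genes were called between the stages (33.3% higher and 32.4% lower). Tnni2 rose by 4.93 ± 0.15 (log2 fold change ± SE, adjusted p = 5.3e-07), Tnnt3 by 3.799 ± 0.153 (adjusted p = 1.11e-06) and Tnnc2 by 3.34 ± 0.17 (adjusted p = 2.24e-06). Tnnt2 fell by 0.996 ± 0.152 (adjusted p = 0.000662). Tnnt1 was 0.61 ± 0.17 higher with TMM scaling (adjusted p = 0.0126), but -0.10 (adjusted p = 0.482) when scaled to library totals and -2.48 when scaled to the 8 muscle genes, so its direction rests on the scaling. Tnni1 (-0.37 ± 0.16, adjusted p = 0.0799) and Tnnc1 (-0.24 ± 0.14, adjusted p = 0.17) did not pass with TMM scaling and were called lower with library totals (-1.08 and -0.96). Without TMM the median of all genes shifts by -0.73, and relative to the 8 muscle genes by -3.13. The fast genes rose and Tnnt2 fell under each of these scalings, but the sizes differed. Scaled to the 8 muscle genes, the rises were 0.25 for Tnnc2, 0.70 for Tnnt3 and 1.83 for Tnni2. On that scale Tnnt2, Tnni1 and Tnnc1 were at -4.09, -3.46 and -3.34. The summed level of 5 skeletal muscle genes (Ttn, Neb, Des, Ryr1 and Actn2) was 6114 to 7901 CPM in E14.5 control muscle spots and 20331 to 20525 at E18.5. All 4 endothelial genes (median 1.61) and all 3 cartilage genes (median 3.76) were called higher at E18.5 as well. The cartilage genes were uneven between sections, with summed levels of 946.8 CPM in E18.5 control 1 and 54.4 in control 2. In the E14.5 controls they summed to 17.6 to 32.1. The part of any of these lists in the differences was not tested.

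Shares within a subunit are free of the scaling, since the genes compared are read in the same spots. Of the UMIs of the 3 troponin T genes, Tnnt3 held 26.4% ± 0.622 (SD, n = 3) at E14.5 and 82.1% ± 0.511 (n = 2) at E18.5. The share of Tnnt1 was 42.0% ± 1.32 at E14.5 and 14.4% ± 0.297 at E18.5, and that of Tnnt2 31.5% ± 0.741 and 3.52% ± 0.214. Of the troponin I UMIs, Tnni1 held 95.4%, 95.2% and 94.6% in the E14.5 controls and 33.4% and 32.7% in the E18.5 controls. Of the troponin C UMIs, Tnnc1 held 28.5%, 29.1% and 30.1% at E14.5 and 2.98% and 3.66% at E18.5. Each subunit thus moved towards its fast gene in every control section, by 55.7 percentage points for troponin T, 62.0 for troponin I and 25.9 for troponin C. The exact permutation test, two-sided, gave p = 0.1 for each share, the smallest value that 3 sections against 2 allow. Exact binomial 95% intervals of the shares, which cover counting error only, were at most 1.003 percentage points wide.

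**Figure D2:**
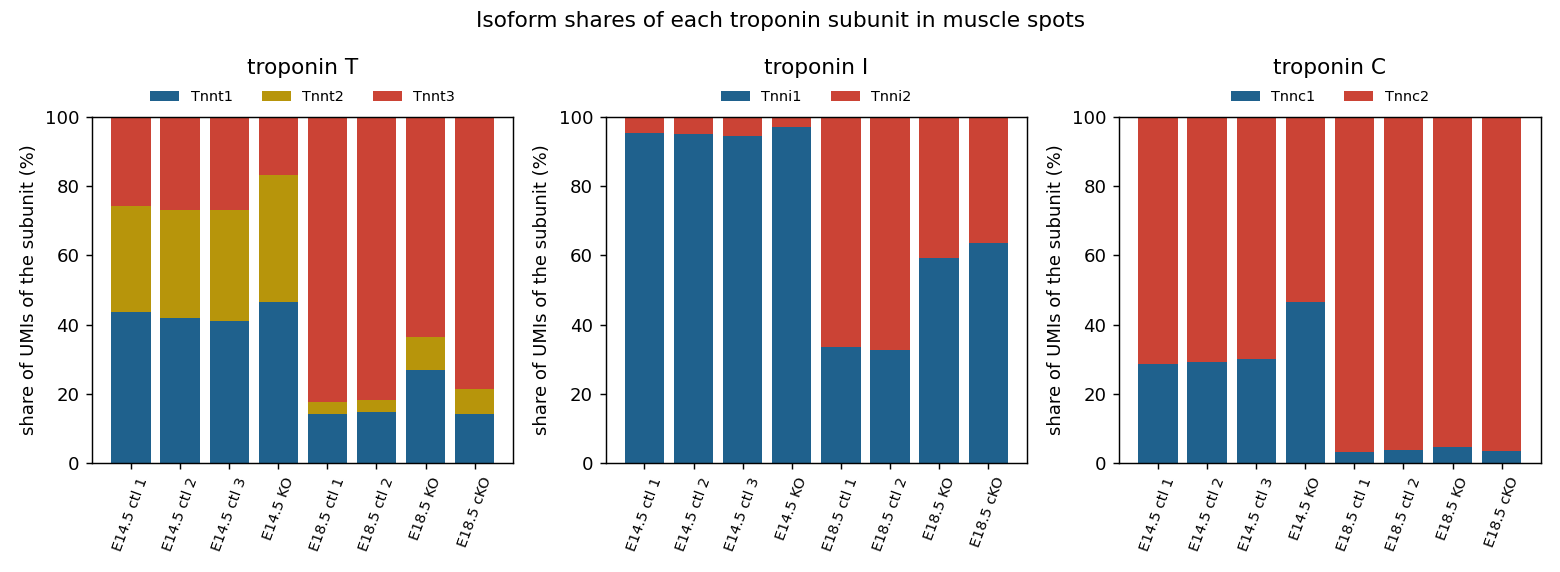
Share of each gene in the UMIs of its troponin subunit (percent, vertical axes 0 to 100) in the muscle spots of each section, stacked to 100. Shares are compared between sections, since capture differs between probes: Tnni1 takes a larger share at E14.5 (94.6% to 95.4% in controls) than at E18.5, where it is larger in the mutant sections (59.3% and 63.6%) than in the controls (33.4% and 32.7%).

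The CaV1.1 -/- section at E14.5 was compared with its 3 controls to ask what the loss of the channel changed early. Of all genes, 2.17% were called (1.6% lower), and among the 7 members the fast Tnni2 was called lower (log2 fold change -1.07 ± 0.19, edgeR adjusted p = 0.039), with 53.5 scaled CPM against 97.0 to 128.5. Its reading rests on 1350 UMIs in the mutant section, and the call was lost without control 3 (adjusted p = 0.138) or scaled to the 8 muscle genes (-0.51, adjusted p = 0.0636). Tnnt3 measured 881.8, under the lowest control at 1378 (-0.79 ± 0.19, adjusted p = 0.0945), and Tnnc2 1666 against a lowest control of 2215 (-0.57 ± 0.21, adjusted p = 0.235). Tnnc1 stood above every control, at 1441 against 925.1 to 1178 (0.50 ± 0.17, adjusted p = 0.211). Without control 1, 2 members were called. All 3 subunits had a lower fast share than in any control, with Tnnt3 at 16.7% against 25.7% to 26.8%, Tnni2 at 2.83% against 4.62% to 5.39%, and Tnnc2 at 53.6% against 69.9% to 71.5%; with a single mutant section these share differences have no test. The 5 skeletal muscle genes summed to 5174 in this section against 6114 to 7901 in controls, and the part of that in the levels was not tested.

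At E18.5 the CaV1.1 -/- section had lower fast troponin levels and higher Tnnt2 than its 2 controls. Tnni2 measured 875.5 against 3232 and 3600, Tnnt3 9314 against 20680 and 21850, and Tnnc2 10620 against 25910 and 24390. Of all genes 25.8% were called (10.6% higher and 15.3% lower), and of the members 4 were called lower and 1 higher. Tnni2 fell by 1.96 ± 0.21 (edgeR adjusted p = 0.00156), Tnnc2 by 1.24 ± 0.23 (adjusted p = 0.00822), Tnnt3 by 1.19 ± 0.21 (adjusted p = 0.00677) and the slow Tnnc1 by 0.76 ± 0.20 (adjusted p = 0.0277). Scaling to the 8 muscle genes, of which Acta1 itself was lower here (-1.70 ± 0.25), moved the median of all genes by 1.43. On that scale Tnni2 was -0.53, Tnnt3 0.24, Tnnc2 0.19 and Tnnc1 0.67, so of these only Tnni2 kept its sign. This scaling moves all genes by nearly the same amount, so a place above or below the median carries over from TMM and is no further check. Tnnc1 was also not called with library totals (-0.22, adjusted p = 0.245), without E14.5 control 3 or without E18.5 control 2 (adjusted p = 0.0572 and 0.0782). Tnnt2 rose by 0.63 ± 0.19 (1418 against 845.7 and 982.4), a call at the threshold (adjusted p = 0.0476) that held in 8 of 16 alternatives, with the same sign in each. Tnnt1, at 3939 against 3555 and 3902, and Tnni1, at 1274 against 1624 and 1749, were not called. Without E14.5 control 3 or without E18.5 control 2, 3 members were called.

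The shares in that section lay between those of the 2 stages of control muscle. Tnni1 held 59.3% of troponin I UMIs against 33.4% and 32.7% in E18.5 controls, Tnnt1 26.8% of troponin T against 14.2% and 14.6%, and Tnnt2 9.66% against 3.37% and 3.67%. For troponin C, Tnnc1 held 4.56% against 2.98% and 3.66%, much nearer to the controls than the other subunits. The 5 skeletal muscle genes summed to 14075 CPM in its muscle spots against 20331 and 20525 in controls, and 3 Schwann cell genes to 75.7 against 14.3 and 14.7. All 4 endothelial genes were called lower (median -0.80), and the part of any of these in the levels was not tested.

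The section labelled bCat cKO, compared with the same controls, differed most in troponin I. Tnni2 measured 1182 against 3232 and 3600 and fell by 1.53 ± 0.20 (edgeR adjusted p = 0.0068); 9.02% of all genes were called (5.8% lower), and no other member was. Tnni1 stood at 2063, above both controls (0.29 ± 0.22, adjusted p = 0.446), Tnnt2 at 1322, also above both (0.53 ± 0.19, adjusted p = 0.135), and Tnnt1 at 2632, under both (-0.50 ± 0.23, adjusted p = 0.22). Tnnt3 (14680), Tnnc2 (18380) and Tnnc1 (621.9) were likewise under both controls without a call. With all tissue spots in place of muscle spots 5 members were called, all lower, and without E14.5 control 1, 5 were called. The share of all genes called in these settings is not given here, so these counts do not show a change particular to the members. Tnni1 held 63.6% of troponin I UMIs in this section, whereas the Tnnt3 share of troponin T (78.8%) and the Tnnc2 share of troponin C (96.7%) stood at or near those of the controls (81.7% to 82.5% and 96.3% to 97.0%). Tnnt2 held 7.10% of troponin T UMIs, against 3.37% and 3.67% in controls. The 6 cardiac muscle markers summed to 3605 CPM here against 1697 and 2059 in controls. Most of it was Myl4, which also stands on the list of developmental genes. Nppa was at 0.124, and Tnni3 at 0.725 against 1.44 and 1.58 in controls. The 5 skeletal muscle genes summed to 18813. The part of any of these in the levels was not tested.

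**Figure D3:**
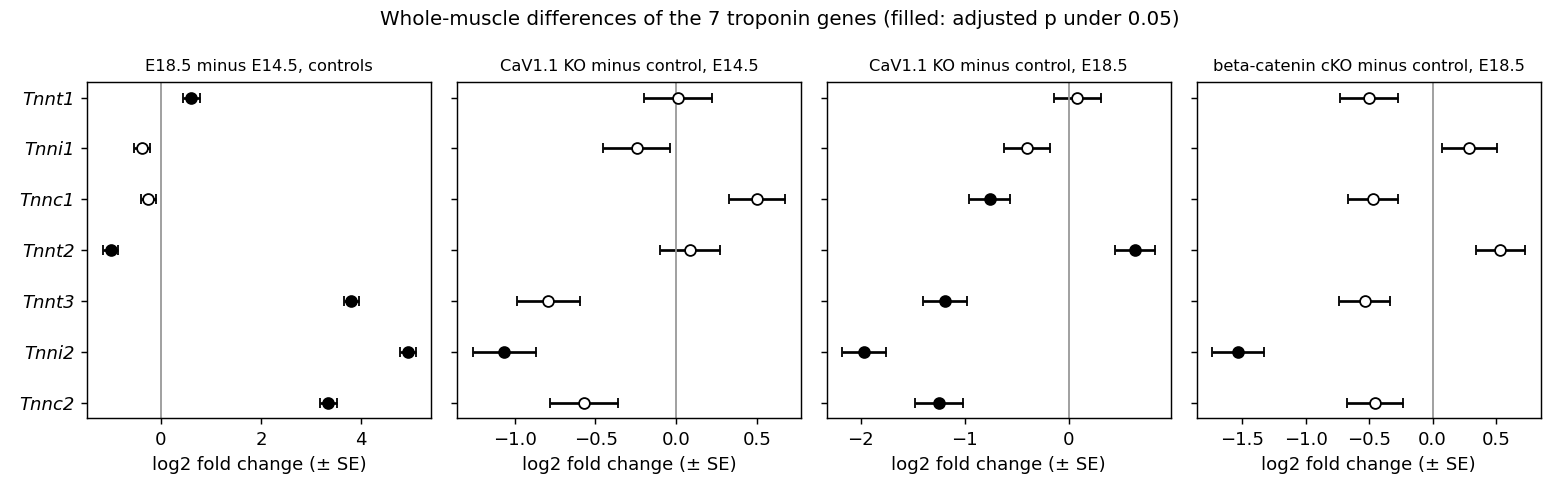
Log2 fold changes with SE (horizontal axes, scales differ between panels) of the 7 genes for the 4 whole-muscle comparisons, from the TMM-scaled edgeR fit, with filled points for adjusted p under 0.05. Tnni2 is the 1 gene filled in all 4 panels, at 4.93 between the stages and at -1.07, -1.96 and -1.53 in the mutant sections.

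The 2 mutants at E18.5 share their controls, and were compared with each other directly. Of all genes 7.46% were called and of the 7 members none was at the adjusted threshold; values ran from -0.79 ± 0.25 for Tnnc2 (adjusted p = 0.101) to 0.58 ± 0.26 for Tnnt1 (adjusted p = 0.21). At an unadjusted p under 0.05 there were 3 members, and the DESeq2 Wald test called 3; without E14.5 control 1, 4 passed the adjusted threshold. The CaV1.1 -/- difference at E18.5 was also set against that at E14.5, with 6.73% of genes called (4.41% lower). Tnnc1 was called, at -1.26 ± 0.26 in this contrast of differences (adjusted p = 0.0373), since it stood above the controls at E14.5 and under them at E18.5. That call was lost without E14.5 control 2 or 3 or E18.5 control 2 (adjusted p = 0.0751, 0.105 and 0.0548), with muscle spots set by Ttn alone (0.0512) and when scaled to the 8 muscle genes (0.223); without E14.5 control 1, 3 members were called.

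Other genes of the sarcomere gave the setting of these differences. Of all genes 33.3% rose and 32.4% fell between the stages. Among thin filament partners (actins, tropomyosins, nebulins, leiomodins and tropomodulins; 13 of 16 tested), 11 rose and 1 fell from E14.5 to E18.5, with the largest rises for Tmod4 (4.06 ± 0.15), a cap of the actin pointed end, and Acta1 (3.96 ± 0.18), skeletal actin, and Lmod1 at -1.16 ± 0.20; the median was 2.05 against -0.02 over all genes. All 11 fast fiber genes rose (median 4.23), led by Mybpc2 (8.98 ± 0.15) and the calcium buffer Pvalb (7.28 ± 0.42). Of 12 slow fiber genes 9 rose and 3 fell (median 2.40), among them Mybpc1 (4.204 ± 0.173) and Myl2 (4.17 ± 0.15) upward and Pln (-4.07 ± 0.89) and Myh6 (-3.08 ± 0.24) downward.

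In the CaV1.1 -/- section at E18.5, 15.3% of all genes were called lower and 10.6% higher. There 7 of 13 thin filament partners were called lower and none higher, led by Lmod2 (-1.97 ± 0.25) and Acta1 (-1.70 ± 0.25). Of the fast fiber genes 7 of 11 were lower and Myh4, the fast IIb myosin heavy chain, was higher by 2.10 ± 0.23, against the direction of the fast troponins. Of the slow fiber genes 7 of 12 were lower, led by Myl2 (-4.74 ± 0.25) and Csrp3 (-4.32 ± 0.34), with Myh7, the slow myosin heavy chain, at -2.08 ± 0.23. Tnnt1 in the same section stood at 0.08 ± 0.22, a difference from Myh7 that was not tested. In the bCat cKO section, where 5.8% of all genes were lower, 5 of 12 slow fiber genes were lower and Pln was higher (4.54 ± 0.98). The falls were led by Myl3 (-5.96 ± 0.36), Myl2 (-4.72 ± 0.24) and Myh7 (-3.62 ± 0.25), while Tnni1, Tnnt1 and Tnnc1 were not called. Myh7 measured 291.3 scaled CPM there against 3059 and 4083 in controls. Of fast fiber genes Myh2 (-2.19 ± 0.29) and Myh4 (-2.09 ± 0.27) were lower. In the CaV1.1 -/- section at E14.5, 1.6% of all genes were lower. There 3 of 12 slow fiber genes were lower, with Myl2 (-2.94 ± 0.24) and Myl3 (-2.84 ± 0.32) first. Of the fast fiber genes 3 of 11 were lower, with Myoz1 (-2.25 ± 0.30) and Mybpc2 (-1.47 ± 0.25) first.

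Developmental genes (7 of 8 tested) and fiber type regulators (21 of 22) completed the lists. From E14.5 to E18.5 Myh8, the perinatal myosin, rose by 3.66 ± 0.18 and Nrap by 3.33 ± 0.18, while the muscle differentiation factor Myog fell by 1.14 ± 0.13; the regulators gave 13 rises of 21 (33.3% of all genes rose), led by the coactivator Ppargc1a (2.67 ± 0.13) and Six4 (1.51 ± 0.20), and 5 falls, a smaller share than the 32.4% of all genes, with Eya1 (-0.99 ± 0.10) and Tead4 (-0.66 ± 0.12) first. In the CaV1.1 -/- section at E18.5, 5 developmental genes were lower, led by Nrap (-2.12 ± 0.27) and Myh3 (-1.86 ± 0.24, the embryonic myosin), and Myog was higher (0.67 ± 0.17). Of the 21 regulators 6 were lower there (15.3% of all genes were), led by Mef2d (-0.89 ± 0.13) and Sox6 (-0.85 ± 0.17), and 3 higher, near the 10.6% of all genes, with Eya1 (0.67 ± 0.13) and Hdac4 (0.47 ± 0.09) first. In the bCat cKO section Myog was higher (0.67 ± 0.17) and 4 of 21 regulators were lower (5.8% of all genes were), led by Ppargc1a (-1.21 ± 0.18) and Six4 (-1.18 ± 0.28).

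Over the muscle spots of single sections the slow and fast genes separated with stage. Correlations here are Pearson's r of log-normalized levels over the spots of 1 section; spots share a section, a depth and a muscle content, so they are descriptions. In the E14.5 controls every pair of members was positive, and slow with fast pairs had r of 0.12 to 0.74 (median 0.45), scarcely different from slow with slow pairs (0.33 to 0.76, median 0.52). In the E18.5 controls slow with slow pairs had r of 0.68 to 0.78 and fast with fast pairs 0.65 to 0.92, while slow with fast pairs had -0.36 to -0.036 in control 1, with 9 of 9 below 0, and -0.055 to 0.16 in control 2, with 4 of 9 below 0. Tnnt2 went with the slow genes (0.21 to 0.42) more than with the fast (-0.33 to 0.03), and less closely than the slow genes with each other. In the mutant sections at E18.5, slow with slow pairs were at 0.56 to 0.65 in CaV1.1 -/- and 0.60 to 0.62 in bCat cKO, and slow with fast pairs at -0.25 to 0.18 and -0.33 to 0.19. Pairs of Tnnt2 with the fast genes were at 0.11 to 0.31 in CaV1.1 -/- and -0.13 to 0.11 in bCat cKO.

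**Figure D4:**
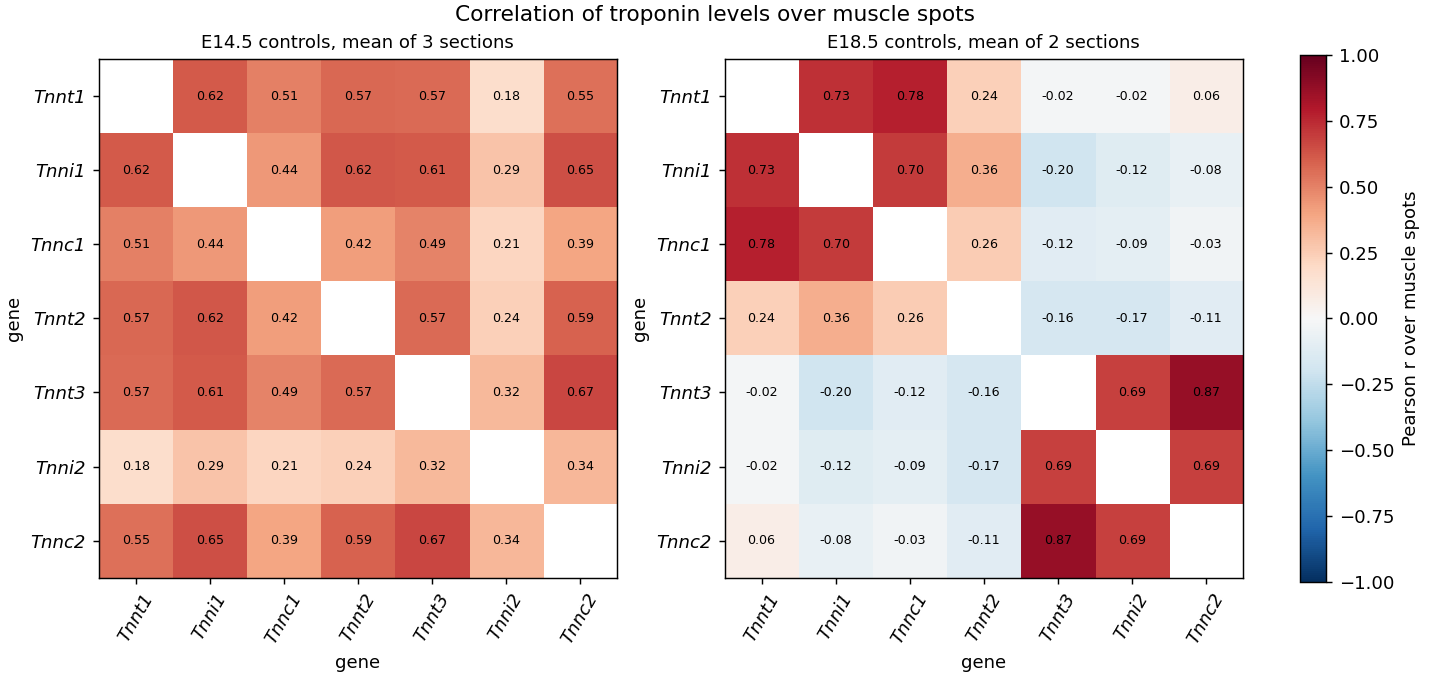
Pearson's r between the troponin genes over muscle spots, as the mean of the 3 E14.5 control sections (left) and of the 2 E18.5 control sections (right), on a color scale from -1 to 1. All pairs are positive at E14.5, and at E18.5 a slow block (0.70 to 0.78) and a fast block (0.69 to 0.87) stand with pairs near 0 between them.

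Of 6432 genes with at least 0.5 UMI per spot, the 1 gene most like each member in the E18.5 controls was another contractile gene. Myh7 was the closest to Tnnt1 (mean r 0.80) and to Tnnc1 (0.78), followed by slow troponins and the slow light chains Myl2 and Myl3, and Tnnt1 (0.73) was the closest to Tnni1, whose list also held Myh3 (0.60). Tnnt2 was most like Myh3 (0.50), followed by Nes (0.38), Map3k7cl (0.38), Tnni1 (0.36) and the endplate enzyme Ache (0.36). Myh8 was the closest to Tnnt3 (0.91), ahead of Ckm, Mylpf, Acta1 and Tnnc2 (0.87 to 0.88). Mylpf was the closest to Tnnc2 (0.90), ahead of Acta1, Myl1, Tnnt3 and Ckm, and Myl1 to Tnni2 (0.74), ahead of Acta1, Aldoa, Tpm1 and Tnnc2.

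The tie of the slow troponins to Myh7 differed between sections. For Tnnt1 r with Myh7 was 0.78 and 0.82 in the E18.5 controls, 0.67 in the CaV1.1 -/- section and 0.22 in the bCat cKO section, and for Tnnc1 it was 0.78, 0.78, 0.63 and 0.25. In the bCat cKO section Tnnt1, Tnni1 and Tnnc1 had r of 0.65, 0.65 and 0.67 with Myh3, against 0.38 to 0.39, 0.57 to 0.63 and 0.35 to 0.40 in its controls. Myh7 there was at 246.6 unscaled CPM, against 2221 and 2990 in controls, which lowers what a correlation over spots can reach. Tnnt3 kept an r with Myh8 of 0.92 and 0.94 in the 2 mutant sections.

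The slow share varied from spot to spot at E18.5 by more than counting error. With Tnni1 as a share of troponin I, the SD over spots of at least 20 UMIs was 13.4 and 11.5 percentage points in the E18.5 controls, with variances 5.75 and 5.61 times the binomial variance. In the E14.5 controls, where Tnni1 took nearly all troponin I UMIs, the SD was 2.43 to 3.42 points and the ratio 1.09 to 1.26. Tnnt1 was read here as a share of Tnnt1 and Tnnt3 UMIs, without Tnnt2. The SD of that share was alike at both stages, at 5.62 to 7.05 points at E14.5 and 6.09 and 5.52 at E18.5. The SD of the Tnnc1 share was larger at E14.5, at 6.73 to 8.90 against 2.16 and 2.19. The ratio to the binomial variance also depends on the UMIs per spot, so it does not compare the stages. For Tnnt1 against Tnnt3 the ratio was 10.2 and 10.6 at E18.5 and 1.42 to 1.96 at E14.5, and for Tnnc1 against Tnnc2 5.96 and 5.99 against 1.49 to 3.15. The mutant sections at E18.5 had ratios of 5.09 to 12.7, the highest for Tnnc1 in bCat cKO. Neighbouring spots resembled each other for all members, with Moran's I of 0.26 to 0.57 in E18.5 controls, at the 97.86 to 99.86 percentile of the genes of the same section, and at the 89.85 percentile or above in all sections. The percentiles are among all genes with a mean of at least 0.5 UMI per spot. They were not matched for level, so they do not set the members apart from other genes with many UMIs. When E18.5 control spots were ranked by Myh7, Myl2 and Myl3 minus Myh4, Pvalb, Mybpc2, Actn3 and Atp2a1, the Tnni1 share was 44.6% and 41.7% in the slowest 1 in 3 spots and 21.8% and 23.6% in the fastest 1 in 3.

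Position along the fibers was read from endplate and junction regions. The endplate region, the part of the muscle where nerve contacts fibers, was the 15% of muscle spots highest in 8 endplate genes, the junction region the 15% highest in 4 myotendinous genes, and the intermediate region the rest; sums per section and region were fitted with section as a block. At E14.5 all 7 members were higher in the endplate region, by 0.19 ± 0.06 (Tnnc1, edgeR adjusted p = 0.0361) to 0.42 ± 0.05 (Tnnt2, adjusted p = 3.25e-08), where 15.2% of genes were called (7.43% higher). The 8 muscle genes took 2.72%, 2.35% and 2.30% of UMIs in the endplate region of the E14.5 controls against 2.44%, 1.85% and 2.07% in the intermediate region, and scaled to them 1 member was called. At E18.5 Tnnt2 was again higher at endplates, with 1088 and 1324 scaled CPM against 769 and 899.2 in the intermediate region (0.53 ± 0.06, adjusted p = 1.41e-08), while Tnni2 (-0.34 ± 0.06), Tnnt3 (-0.32 ± 0.06), Tnnc2 (-0.28 ± 0.06) and Tnnt1 (-0.25 ± 0.06) were lower by this rule; 12% of genes were called (4.18% higher and 7.81% lower). Tnni1 held 40.1% and 36.7% of troponin I UMIs at E18.5 endplates against 30.5% and 30.5% in the intermediate region.

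In the junction region, where fibers meet tendon, Tnnc1 was higher at E14.5 (0.31 ± 0.06, edgeR adjusted p = 0.00125), the 1 member called there beside 7.3% of genes (3.1% higher). At E18.5 Tnnt2 was higher (0.30 ± 0.06, adjusted p = 7.53e-05) and Tnni2 (-0.59 ± 0.06), Tnnt3 (-0.54 ± 0.06) and Tnnc2 (-0.50 ± 0.06) were lower, beside 31.4% of genes (11.5% higher and 19.9% lower), and the Tnni1 share was 40.8% and 40.1%. The differences at E18.5 were set against those at E14.5. The 8 endplate genes, which chose the spots, marked the endplate region less sharply at E14.5. They were 1.93-fold, 1.96-fold and 1.62-fold higher there than in the intermediate region of the E14.5 controls, against 4.35-fold and 4.04-fold at E18.5. The part of this in the stage differences was not tested. For endplates, 5 members were called (13.2% of genes, 7.67% lower), all lower at E18.5 than at E14.5, led by Tnnt3 (-0.68 ± 0.08, adjusted p = 5.6e-07), and for the junction 4 were (10.9% of genes, 5.19% higher and 5.69% lower), with Tnnt2 higher (0.35 ± 0.07, adjusted p = 0.00104). Without E18.5 control 1 the E18.5 endplate count was 1, and without E14.5 control 2 the E14.5 junction count was 0. Without the section block no member was called in the endplate contrasts or at the E14.5 junction, and at the E18.5 junction 2 were. Directions turned with regions set by distance from tissue outside muscle instead of by marker genes. Inner muscle, at least 200 µm from such tissue, held 2535 of 3092 and 1881 of 2205 muscle spots of the E18.5 controls. The intermediate band there held 233 and 121 spots. In the E14.5 controls inner muscle held 190 of 557, 270 of 575 and 465 of 587 spots. This rule therefore sets a large part of the muscle against a band near its edge, and is not a second reading of the 15% endplate region. Tnnt3, Tnni2, Tnnc2 and Tnnt1 then stood at 0.37, 0.41, 0.33 and 0.09 in inner muscle at E18.5, and no member was called in inner muscle at E14.5. The 5 stage differences called for endplates turned positive and none was called (Tnnt3 0.19, Tnni2 0.26, Tnnc2 0.20, Tnnt1 0.049 and Tnnc1 0.068), and the junction stage difference also had 0 calls. In the outer muscle set by distance all 7 members were called lower at E14.5, Tnnc1 among them (-0.26), and Tnnt2 at E18.5 was -0.16, against 0.30 by marker genes.

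In the mutant sections the endplate pattern was read from the 15% of spots chosen by the same rule, which need not be the same place as in controls. The 8 endplate genes, which chose the spots, were 2.48-fold higher there than in the intermediate region in CaV1.1 -/- at E18.5 and 3.13-fold in bCat cKO, against 4.35-fold and 4.04-fold in the controls, and in the intermediate region they summed to 1684 and 932.1 CPM against 687.8 and 712.3. In CaV1.1 -/- muscle at E18.5 Tnni2 measured 1012 scaled CPM at endplates and 869.9 in the intermediate region, the opposite order to both controls (2690 against 3611, and 3327 against 3999). The endplate difference was greater than in controls for Tnni2 (0.56 ± 0.11, edgeR adjusted p = 0.00418), Tnnc2 (0.50 ± 0.11, adjusted p = 0.00784) and Tnnt3 (0.49 ± 0.11, adjusted p = 0.0102), beside 3.14% of genes called (2.35% higher). In the bCat cKO section Tnnc1 had the larger endplate difference (0.66 ± 0.13, adjusted p = 0.0097; 0.346% of genes, 0.0564% higher), with 804.6 scaled CPM at endplates and 549.7 in the intermediate region, against 716.3 and 808.6 in control 1 and 918.5 and 947.5 in control 2. Without E18.5 control 1 these counts were 1 in CaV1.1 -/- and 0 in bCat cKO, and without E14.5 control 2 the latter was 2. With regions by distance no member was called in either (Tnni2 0.19 in CaV1.1 -/-, Tnnc1 -0.15 in bCat cKO), and the bCat cKO count was also 0 with DESeq2, with regions of 10% of spots and without the section block. At E14.5 no member was called in the CaV1.1 -/- endplate difference (0.0282% of genes; 3 members at an unadjusted p under 0.05 and 0 by DESeq2), with values of -0.16 ± 0.16 to 0.34 ± 0.11. The Tnni1 share also followed distance from the muscle edge in the CaV1.1 -/- section at E18.5, from 69.4% within 100 µm to 49.0% at 300 µm or more, where the 8 muscle genes took 4.589% and 8.005% of UMIs, against 40.9% to 31.5% and 40.0% to 31.5% in the controls.

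**Figure D5:**
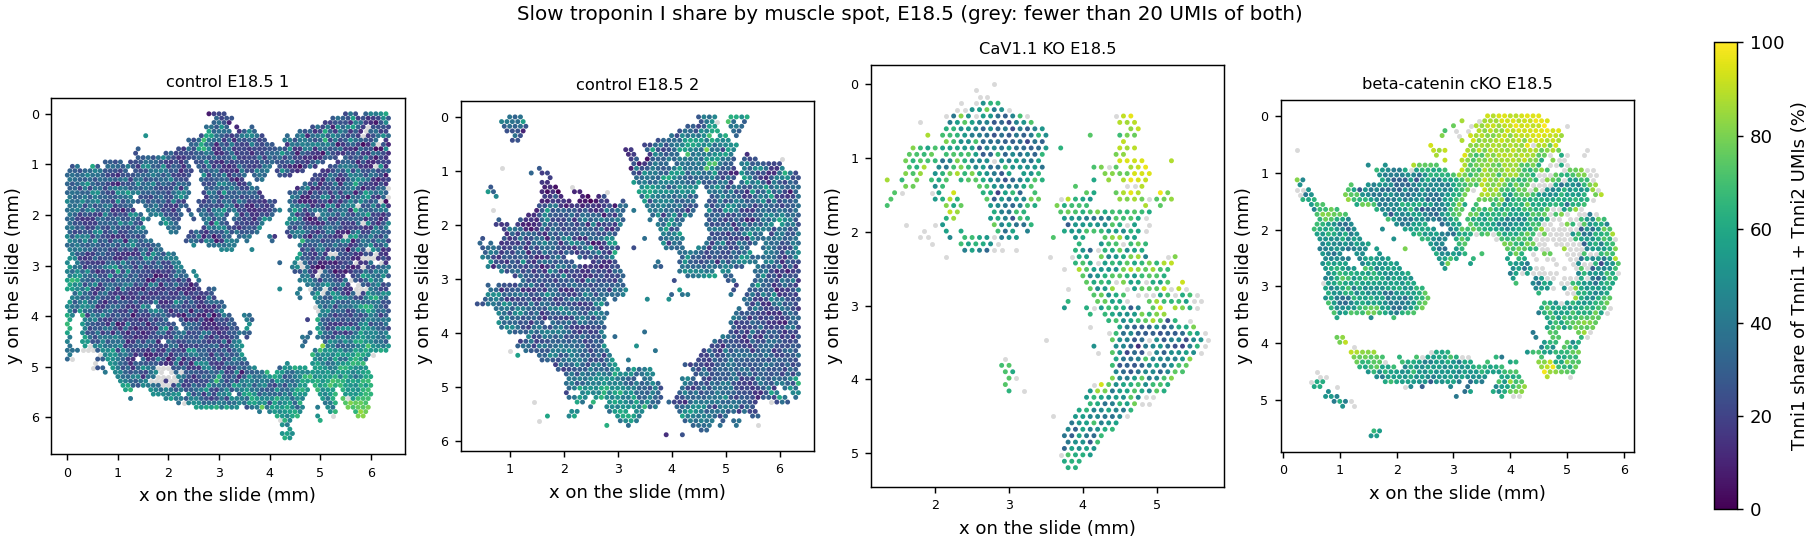
Muscle spots of the 4 sections of E18.5 at their place on the slide (axes in mm), colored by the Tnni1 share of Tnni1 and Tnni2 UMIs (percent), with grey for spots under 20 UMIs of both genes. In the controls the 90th percentile of spots is 51.0% and 47.7%, and the bCat cKO section holds a connected group of 168 spots of at least 80% at its upper edge.

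Drawn on the slide, the Tnni1 share was higher in the mutant sections. Over spots of at least 20 troponin I UMIs it was 59.3% in CaV1.1 -/- and 63.5% in bCat cKO, against 33.4% and 32.7% in the controls. Counts over a fixed share rise with such a shift, so they do not tell patches from a shift of the whole section. Moran's I of Tnni1 was 0.386 and 0.552 in these mutants, against 0.362 and 0.360. Spots of at least 80% Tnni1 were then counted, a threshold chosen after the maps were seen. They made up 4 of 3025 spots with at least 20 troponin I UMIs in E18.5 control 1, 0 of 2194 in control 2, 92 of 729 (12.6%) in CaV1.1 -/- and 234 of 1417 (16.5%) in bCat cKO; 0 of 2194 allows a share of up to 0.137%. In bCat cKO 168 of them formed 1 connected group, of which 72 were endplate spots and 6 junction spots. Over the whole section 225 of 1570 muscle spots were endplate spots and 232 were junction spots, so endplate spots were more frequent in the group. The part of these shared spots in the Tnnc1 endplate difference of the section was not tested. As the group was chosen by the Tnni1 share, its troponin I values are description: 3436 unscaled CPM of Tnni1 against 1552 in the remaining muscle, and 456.4 of Tnni2 against 1064. Other members in the group were Tnnc1 at 1273 against 440.5, Tnnt2 at 1853 against 1035, Tnnt1 at 3231 against 2113, Tnnt3 at 8798 against 12845 and Tnnc2 at 11178 against 16068. Tnnt1, Tnnc1 and Tnnt2 varied with Tnni1 over the muscle spots of this section (r of 0.60 to 0.61). Tnnt3 and Tnnc2 varied with Tnni2 (0.67 and 0.66), so the values of all these members are description as well. Myh3 was at 7218 against 4279, while Myh8 was at 20440 against 31900, Myh4 at 24.83 against 61.78 and Myh7 at 206.1 against 251.3. Myh3 varied with Tnni1 over these muscle spots (r of 0.65) and Myh8 with Tnni2 (0.64). The myosin values of the group are therefore description too. In CaV1.1 -/- the largest group held 26 spots, with Myh7 at 1622 against 842.4 and Myh3 at 1858 against 1614. Myh8 there was at 13540 against 22340 and Myh4 at 612.6 against 1369. Both groups were chosen by the Tnni1 share, are part of 1 section each and have no replicate.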

How the data were processed

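Spatial transcriptomes (10x Visium, probe-based, formalin-fixed sections) were measured in 8 diaphragm sections, 1 per embryo. The authors deposited raw UMI counts per gene and spot from Space Ranger (2.0.0 for 3 sections and 2.0.1 for 5) against mm10. Spots of at least 1000 UMIs were kept, and muscle spots were those above an Otsu threshold of the mean log value of Ttn, Neb, Des, Ryr1, Actn2, Mylpf, Acta1 and Myl1. UMIs were summed per section, or per section and region, since spots are not replicates, and tested with edgeR 4.0.16 (quasi-likelihood, TMM, filterByExpr, Benjamini-Hochberg adjustment over all genes, threshold 0.05) in R 4.3.3. The muscle fit had 3 residual degrees of freedom, and each lone mutant section was assumed to vary as the controls do. Region fits carried section as a block. The labels do not say whether embryos shared a litter. The fits were tested on simulated data.

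Endplate spots were scored by 8 genes (Ache, Ufsp1, Musk, Etv5, Prkar1a and the receptor genes Chrna1, Chrng and Chrnd), and junction spots by Col22a1, Ankrd1, Rxrg and Uchl1. The text names the 7 members, the 5 genes most like each, and, of each fixed list, the 2 called genes with the largest change in each direction; Myh7 and other myosins set beside the members and the spots of high Tnni1 share were chosen after their values were seen. The members and lists were chosen with earlier results of these data known. Alternatives were DESeq2 1.42.0, other scalings, filters, masks and region rules, and each control left out; library totals were added after seeing the data. Planned comparisons between other parts of the muscle are not reported here. Intervals and floors cover counting error only.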

Additional observations from a re-analysis of the deposited data

Results flagged for a closer look

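Differences between stages or genotypes in the same contrast were marked for a closer look where the difference itself was tested, and all values here are log2 with edgeR adjusted p. For Tnnc1 the CaV1.1 -/- difference was 1.26 lower at E18.5 than at E14.5 (value -1.26, adjusted p = 0.0373). The endplate difference was lower at E18.5 than at E14.5 for Tnnt1 (-0.53, adjusted p = 8.94e-06), Tnnc1 (-0.30, adjusted p = 0.0376), Tnnt3 (-0.68, adjusted p = 5.6e-07), Tnni2 (-0.61, adjusted p = 1.61e-05) and Tnnc2 (-0.63, adjusted p = 1.5e-06). The junction difference was higher at E18.5 for Tnnt2 (0.35, adjusted p = 0.00104) and lower for Tnnt3 (-0.50, adjusted p = 7.78e-05), Tnni2 (-0.59, adjusted p = 7.34e-05) and Tnnc2 (-0.48, adjusted p = 0.000126). With regions by distance, where inner muscle is most of the E18.5 control muscle, all 5 endplate values turned positive. No member was then called in either stage difference. The Tnnc1 endplate call held in 7 of 14 alternatives. The genes that chose the endplate spots were 1.62-fold to 1.96-fold higher there in the E14.5 controls, against 4.04-fold and 4.35-fold at E18.5.

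In the CaV1.1 -/- section at E18.5 the endplate difference was greater than in controls for Tnnt3 (0.49), Tnni2 (0.56) and Tnnc2 (0.50). In the bCat cKO section it was greater for Tnnc1 (0.66). With regions by distance none of these 4 was called, and the Tnnc1 value was -0.15.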

How the results depend on the processing

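The mutant values rest on 1 section each. The share differences between stages kept their direction with all tissue spots, with Ttn-only muscle spots and without each control, the alternatives run for shares. With library totals the median of all genes moved by -0.73 between the stages, 0.54 in CaV1.1 -/- at E18.5 and 0.21 in bCat cKO, and genes called higher made up 20%, 90.5% and 79.5% of calls against 50.7%, 41% and 35.7% with TMM. Scaled to the 8 muscle genes the medians moved by -3.13, 1.43 and 0.51, and by 0.54 in CaV1.1 -/- at E14.5, with shares called higher of 1.54%, 99.2%, 93.9% and 96.5% (26.1% with TMM). In CaV1.1 -/- against bCat cKO the shares were 84.4% and 97.6% against 38.9%, with medians at 0.33 and 0.92, and in the CaV1.1 -/- difference between stages 94.7% and 99% against 34.5%, with medians at 0.54 and 0.91.

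Counts of members called are given next, with the causes of the changes not tested. They stand without the share of all genes called in the same setting, so a changed count does not show a change particular to the members. For CaV1.1 -/- at E14.5 (1 called), DESeq2 called 4, all tissue spots 2, library totals 2, muscle gene scaling 3 and the replicate block 0. For CaV1.1 -/- at E18.5 (5 called) the replicate block left 3. For bCat cKO (1 called), DESeq2 called 3, all tissue spots 5, library totals 2, the compared groups alone 2, muscle gene scaling 3 and the replicate block 0. For CaV1.1 -/- against bCat cKO (0 called), DESeq2 called 3, library totals 1, the compared groups alone 3 and muscle gene scaling 3. For the CaV1.1 -/- difference between stages (1 called), DESeq2 called 2, library totals 2, Ttn-only muscle spots 0, muscle gene scaling 3 and the replicate block 0. Same-numbered controls of the 2 stages did not deviate together (r = -0.33 and -0.32 over genes, 2 pairs), and the labels tie no embryos, so the replicate number is only a name; with it as a block Tnnt1 between stages was 0.55 (adjusted p = 0.0691).

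Without the section block (no replicate block) the counts fell from 7 to 0 for the E14.5 endplate, 1 to 0 for the E14.5 junction, 5 to 0 for the E18.5 endplate, 4 to 2 for the E18.5 junction, 5 to 0 and 4 to 0 for the endplate and junction differences between stages, and 3 to 0 and 1 to 0 for the endplate differences of CaV1.1 -/- at E18.5 and bCat cKO. With regions by distance the counts were 0, 7 and 3 for the E14.5 endplate, E14.5 junction and E18.5 endplate, and 0 for both stage differences and both E18.5 mutant endplate differences. Muscle gene scaling gave 1, 4 and 2 for the E14.5 endplate, E14.5 junction and E18.5 endplate, 3 for the endplate stage difference and 1 for the CaV1.1 -/- endplate difference at E18.5. With no filter on low counts the endplate differences gave 1 (CaV1.1 -/- at E14.5), 5 (E18.5) and 2 (bCat cKO). With regions of 10% of spots they gave 1 for CaV1.1 -/- at E18.5 and 0 for bCat cKO, and with 25% they gave 1 for CaV1.1 -/- at E14.5 and 2 for bCat cKO. DESeq2 gave 0 for the bCat cKO endplate difference.

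Directions that turned are given by member. Between stages Tnnt1 was -0.10 with library totals and -2.48 with muscle gene scaling. With muscle gene scaling CaV1.1 -/- at E18.5 gave Tnni1 1.03, Tnnc1 0.67, Tnnt3 0.24 and Tnnc2 0.19, CaV1.1 -/- against bCat cKO gave Tnnc1 0.62, and the CaV1.1 -/- stage difference gave Tnni1 0.71. The same scaling gave Tnnc1 -0.064 and Tnni2 -0.0017 at the E14.5 endplate, Tnnt1 0.028 and 0.33 at the E18.5 endplate and junction, Tnni1 0.35 and Tnnc1 0.23 in the endplate stage difference, Tnnt1 0.40, Tnnc1 0.30, Tnnt3 0.059 and Tnnc2 0.082 in the junction stage difference, and Tnnt2 -0.42 in the CaV1.1 -/- endplate difference at E18.5. With regions by distance the E14.5 junction gave Tnnt1 -0.34 and Tnnc1 -0.26, the E18.5 endplate Tnnt1 0.090, Tnnt3 0.37, Tnni2 0.41 and Tnnc2 0.33, the E18.5 junction Tnni1 -0.36, Tnnc1 -0.40 and Tnnt2 -0.16, the endplate stage difference Tnnt1 0.049, Tnnc1 0.068, Tnnt3 0.19, Tnni2 0.26 and Tnnc2 0.20, the junction stage difference Tnnt3 0.026, and the bCat cKO endplate difference Tnnc1 -0.15.

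Leaving out 1 control at a time, members called ranged from 4 to 5 between stages, 0 to 2 for CaV1.1 -/- at E14.5, 3 to 6 at E18.5, 1 to 5 for bCat cKO, 0 to 4 for CaV1.1 -/- against bCat cKO and 0 to 3 for the CaV1.1 -/- stage difference; a lone remaining control was assumed to vary like the other groups. The ranges were 5 to 7 and 0 to 1 for the E14.5 endplate and junction, 1 to 6 and 4 to 4 for those of E18.5, 4 to 5 and 4 to 5 for their stage differences, and 1 to 4 and 0 to 2 for the endplate differences of CaV1.1 -/- at E18.5 and bCat cKO.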
